A study of Saccharomyces cerevisiae with 18 samples.

Results

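The genes described here are 43 genes of amino acid synthesis in budding yeast, Saccharomyces cerevisiae: GCN4, the activator of these pathways, and 42 enzyme genes. They were chosen by pathway, through their systematic identifiers, by a rule that uses no measured value. Earlier results of these data were known when the choice was made. The table holds 7126 genes and other features, and all 43 were found in it. Each has 1 coding exon in the annotation used here. By pathway they are 3 genes of leucine synthesis, 7 of isoleucine and valine, 6 of histidine, 6 of the aromatic trunk, 5 of tryptophan, 7 of lysine, 5 of threonine and homoserine, and 3 of serine. Arginine genes, sulfur genes and the marker genes deleted in the strain were left out.

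The study compared the transcriptomes of strains with Rvb1 or Rvb2 tagged, after loss of PIH1 or TAH1. Rvb1 and Rvb2 are ATPases of chromatin remodelling and complex assembly, and Pih1 and Tah1 join them in the R2TP assembly complex. There were 18 libraries from BY4741, a common haploid laboratory strain, with 3 biological replicates in each of 6 groups. With Rvb1 tagged, the groups were the wild type, the PIH1 deletion (Pih1-delta) and the TAH1 deletion (Tah1-delta), and with Rvb2 tagged they were the same 3 genotypes. Every strain, the wild types included, therefore carried a tag on Rvb1 or Rvb2, and "wild type" refers to PIH1 and TAH1. Cultures of 5 ml in YPD were kept at 30 °C and harvested at an optical density (OD600) between 1.2 and 1.5, and poly(A)+ RNA was sequenced. YPD is a rich medium that supplies amino acids. What the tag is, how the deletions were made and how many clones stand behind a strain could not be learned from the labels. For replicate 1 in the Rvb2-tagged wild type group, the title names Rvb2 while the source field names Rvb1, and the title was followed.

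Gcn4 is a DNA-binding activator that raises the transcription of amino acid enzyme genes when cells are short of amino acids. Its own output is set mostly by translation: the kinase Gcn2 senses uncharged tRNA and phosphorylates the initiation factor eIF2, and this lets ribosomes reach the GCN4 reading frame past short upstream frames. The level of GCN4 mRNA is therefore not a measure of Gcn4 protein. Some pathways have their own activators on top of Gcn4, such as Leu3 for branched-chain synthesis, Lys14 for lysine and Bas1 with Pho2 for histidine.

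Between 4829249 and 5412654 normalized counts were recorded per library, over 6362 to 6518 features above 0. The 43 genes took 1.53% to 2.33% of a library's counts. The markers of the strain were as its genotype has them: LEU2, URA3 and MET17 were at 0 in all 18 libraries, and HIS3, of which BY4741 keeps a part, lay between 425 and 846. Genes of a-cells were present (STE2 from 4640 to 7417), while the alpha-cell genes MF(ALPHA)1 and STE3 did not pass 11 and 36, and MF(ALPHA)2 lay between 34 and 73. PIH1 lay at 1 to 9 normalized counts in its own deletions against 125 to 170 elsewhere, and TAH1 at 0 to 3 against 138 to 234. RVB1 itself lay at 491 to 705 in the Rvb1-tagged deletions against 925 to 1031 in their wild type, and at 1608 to 1702 in the Rvb2-tagged deletions against 762 to 986, while RVB2 lay at 302 to 550 in the Rvb2-tagged deletions against 815 to 1111 elsewhere. What part these levels have in the results was not tested. In bulk RNA, fewer cells that make a transcript and less of it per cell cannot be told apart.

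One library stood apart from its group in these genes. In replicate 2 of the Rvb1-tagged wild type, 40 of the 43 genes were the highest of the 3 replicates, against 40.5% of all genes tested. Their median lay 0.34 above the mean of the other 2 replicates on the log2 scale, where the same median lay between -0.18 and 0.08 in the other 17 libraries. Over all genes, this library deviated from the rest of its group by a root mean square of 0.404, against 0.155 to 0.306 for the others. It is a control library for both Rvb1-tagged deletions, so the number of genes called in each comparison with that wild type is given with and without it.

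Per length of gene, the 43 genes were well above the typical transcript. Their median in the Rvb2-tagged wild type was 181 FPKM (mean of 3 libraries, in the authors' values, which are rounded to whole numbers), against 49.67 FPKM for all genes tested, and 41 of the 43 were at or above that median. The highest was ILV5, the reductoisomerase of branched-chain synthesis, with 1713 ± 173 FPKM (SD, n = 3), next to GCN4 with 1610 ± 274 FPKM, and these levels differed by less than their spread. After a gap came BAT1, the mitochondrial branched-chain aminotransferase, with 573 ± 24.9 FPKM, and HIS1, the enzyme of the first histidine step, with 553 ± 6.03 FPKM, which also lay within their spread of each other. At the low end were ARO1, the enzyme of 5 joined steps to chorismate, with 39.3 ± 0.577 FPKM, and LYS2, the aminoadipate reductase, with 36.7 ± 1.53 FPKM.

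**Figure D1:**
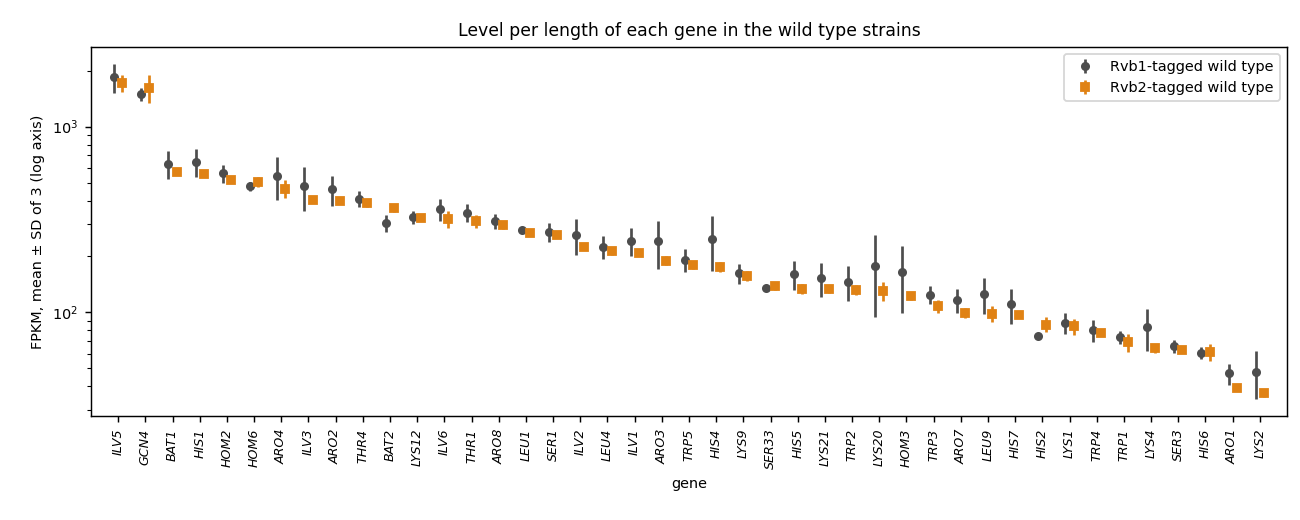
FPKM of each of the 43 genes in the wild type strains (points, mean of 3 libraries; bars, SD; log axis), ordered by the level in the Rvb2-tagged wild type. ILV5 and GCN4 stand at the top and LYS2 at the bottom with 36.7 FPKM, and the SD is wider in the Rvb1-tagged wild type for many genes, such as LYS20.

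Each deletion was compared with the wild type that carries the same tag, and p-values are from limma with Benjamini-Hochberg adjustment over 5825 genes, with a threshold of 0.05. Changes are differences of mean log2(normalized count + 1), with their standard errors and 3 libraries per group. The deletions with one tag share their wild type libraries, so their values are set side by side without a comparison of overlap.

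With Rvb1 tagged, loss of TAH1 went with higher levels of most of these genes. Of the 43, 31 rose, which is 72.1%, against 6.28% of all genes tested. No gene fell, against 4.48% of all genes (10.8% in either direction), and at an unadjusted p under 0.05 only TRP1 was lower. The median change of the 43 was 0.45, against 0.00 for all genes. Under quantile normalization 30 of the 43 rose and 1 fell, while the split among all genes moved from 366 up and 261 down to 267 up and 320 down. By pathway, 3 of 3 leucine genes rose, 5 of 7 of isoleucine and valine, 4 of 6 of histidine, 5 of 6 of the aromatic trunk, 4 of 5 of tryptophan, 6 of 7 of lysine, 2 of 5 of threonine and homoserine, and 2 of 3 of serine.

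GCN4 itself (YEL009C, chrV:138918-139763, minus strand) did not pass the test. It had 6122, 7093 and 6228 normalized counts in the Rvb1-tagged wild type and 6812, 7186 and 6841 in the TAH1 deletion, a change of 0.10 ± 0.09 (adjusted p = 0.471). The groups overlapped through replicate 2 of the wild type. With library weights, or in a fit of only these groups without that replicate (a setting added after the data were seen), GCN4 passed the test with a change of 0.16 (adjusted p = 0.0201) or 0.17 (adjusted p = 0.032).

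HIS4 (YCL030C, chrIII:65934-68333, minus strand), which encodes an enzyme of several histidine steps, had the largest rise. It stood at 2402, 4197 and 2576 in the wild type and at 6899, 7651 and 5348 in the TAH1 deletion. All 3 deletion libraries were above all 3 wild type libraries, by 1.15 ± 0.21 or 2.21-fold (adjusted p = 0.00183). HOM3 (YER052C, chrV:256375-257958, minus strand), the aspartate kinase at the entry to threonine and methionine synthesis, had 1007, 1929 and 1054 in the wild type and 2707, 2784 and 2105 in the deletion. It rose by 0.98 ± 0.17 (adjusted p = 0.0011) with no overlap, although replicate 2 of the wild type came close to the lowest deletion library. LEU4 (YNL104C, chrXIV:424895-426754, minus strand), the main isopropylmalate synthase of leucine synthesis, had 1966, 2495 and 1977 against 4303, 4232 and 3545. Its rise of 0.91 ± 0.09 (adjusted p = 3.1e-06) was larger than any spread within the groups.

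ARO3, one of a pair of synthases that open the aromatic pathway, had 1155, 1840 and 1144 in the wild type and 2716, 2716 and 2212 in the deletion, and rose by 0.92 ± 0.14 (adjusted p = 0.000374). ILV3, the dihydroxyacid dehydratase shared by isoleucine and valine synthesis, had 3683, 5608 and 3627 against 7132, 7400 and 6831, and rose by 0.76 ± 0.11 (adjusted p = 0.00036). In both genes the groups were apart. LYS20, a homocitrate synthase, had 876, 1806 and 837 against 2040, 2146 and 1750, so that replicate 2 of the wild type lay above the lowest deletion library. Its rise of 0.84 ± 0.19 passed the test (adjusted p = 0.00925), but not without replicate 1 (adjusted p = 0.0651) or replicate 3 (adjusted p = 0.0674) of the wild type. The rise of ARO4, 0.53 ± 0.12 (adjusted p = 0.0093), was lost in the same way (adjusted p = 0.0666 and 0.0664).

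The enzyme genes that did not pass the test were ILV5, BAT2, HIS2, HIS6, ARO7, TRP1, LYS9, HOM6, THR1, THR4 and SER3, with changes from -0.19 for TRP1 to 0.21 for ILV5. When replicate 2 of the wild type was left out, ILV5 (0.36, adjusted p = 0.000396), ARO7 (0.27, adjusted p = 0.0123), THR1 (0.26, adjusted p = 0.00275), THR4 (0.25, adjusted p = 0.000667) and LYS9 (0.18, adjusted p = 0.0373) passed it. Among the duplicated enzymes, the partners were called unequally in some pairs. BAT1 rose by 0.65 ± 0.09 (adjusted p = 0.000108), while BAT2, its cytosolic partner, changed by -0.01 ± 0.12 (adjusted p = 0.981). SER33, a phosphoglycerate dehydrogenase of serine synthesis, rose by 0.51 ± 0.12 (adjusted p = 0.00964), and SER3 changed by -0.02 ± 0.08 (adjusted p = 0.887). LEU9 rose by 0.61 ± 0.10 and LYS21 by 0.55 ± 0.10, beside LEU4 and LYS20. The differences between partners were not tested. LYS20 and LYS21 are 91.9% identical over their coding sequences, with a longest identical run of 278 bases, so the split of reads between them is uncertain. SER3 overlaps SRG1 on the same strand and is uncertain as well.

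The call rests on how the spread was estimated. In a fit of only the Rvb1-tagged wild type and TAH1 deletion libraries, 2 of the 43 genes rose, with 31 at an unadjusted p under 0.05, and 1.27% of all genes were called. LEU4 kept its call there (adjusted p = 0.0231), and HIS4, HOM3, ARO3, ILV3 and LYS20 lost theirs (adjusted p = 0.072, 0.116, 0.0791, 0.0866 and 0.199). Without replicate 2 of the wild type, 36 rose (83.7%), among them all 31, against 17.5% of all genes. The median was then 0.56, and 31.4% of all genes were called in either direction. The changes were then 1.40 for HIS4, 1.29 for HOM3, 1.20 for LYS20, 1.14 for ARO3, 1.02 for LEU4, 0.96 for ILV3 and 0.79 for BAT1, each larger than with all 3 libraries, and GCN4 stayed uncalled (0.17, adjusted p = 0.143). A fit of only these groups without that library called 37, a setting added after the data were seen and given without the share of all genes.

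**Figure D2:**
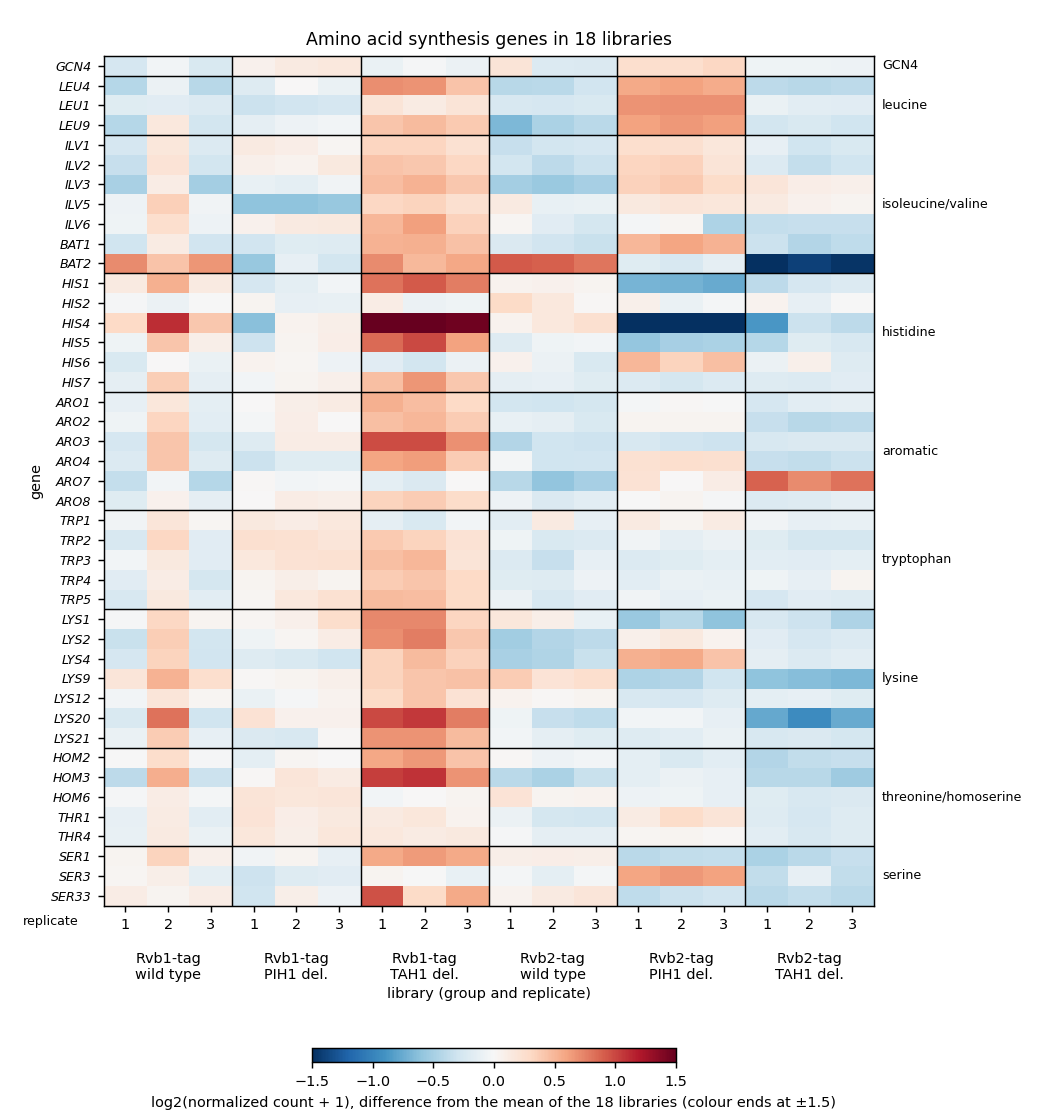
Deviation of each gene from its mean over the 18 libraries, as log2(normalized count + 1), with genes in rows by pathway and libraries in columns by group and replicate (red, above the mean; blue, below). The 3 libraries of the Rvb1-tagged TAH1 deletion are red in most rows, and replicate 2 of the Rvb1-tagged wild type is redder than its partners.

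The short DNA word TGACTC is the core that Gcn4 recognises, and Bas1 recognises it too. In the 500 bases before the start codon, on either strand, 27 of the 43 genes (62.8%) held it, against 12.7% of 6000 genes. The longer word TGACTCA, which contains TGACTC, was in 20 of the 43 (46.5%), against 4.0% of the 6000. In the Rvb1-tagged TAH1 deletion, 23 of the 27 genes with TGACTC rose (median change 0.47) and 8 of the 16 without it (median 0.28). ARO3 and LYS20, which rose, had no match in this window. In the Rvb2-tagged PIH1 deletion 11 rose and 7 fell of the 27 (median 0.12), and 7 and 3 of the 16 (median 0.15). In the Rvb2-tagged TAH1 deletion these counts were 1 and 7 (median -0.05), and 1 and 6 (median -0.08). In the Rvb1-tagged PIH1 deletion they were 3 and 4 (median 0.08), and 4 and 3 (median 0.03). The stretches below are from genes with large rises in the Rvb1-tagged TAH1 deletion, and are printed to show the word in place. They are read from the reference genome, whose chromosome lengths equal those of sacCer3, 5′ to 3′ on the strand of the gene, with TGACTC in capitals. All are on the minus strand.
HIS4 at chrIII:68512-68603, 270 to 179 bases before the start codon: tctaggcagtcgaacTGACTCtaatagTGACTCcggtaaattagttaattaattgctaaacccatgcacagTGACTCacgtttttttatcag
HOM3 at chrV:258221-258256, 298 to 263 bases before: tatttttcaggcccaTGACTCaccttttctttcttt
LEU4 at chrXIV:426835-426870, 116 to 81 bases before: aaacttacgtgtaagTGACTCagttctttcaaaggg
ILV3 at chrX:466323-466358, 150 to 115 bases before: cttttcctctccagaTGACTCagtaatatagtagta
HIS4 carried 3 copies within these 92 bases, and the other stretches carried 1 each. A match is a description of letters and does not show binding.

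With Rvb2 tagged, loss of TAH1 gave a different picture. Of the 43 genes 2 rose (4.65%), against 23.8% of all genes tested, and 13 fell (30.2%), against 20.6% (44.4% in either direction). The median change was -0.05, against 0.02 for all genes. Under quantile normalization the counts were 5 up and 15 down, and among all genes the split moved from 1389 up and 1200 down to 1180 up and 1533 down. The shares of all genes in this strain include chromosome XVI, with median changes of 0.94 and 0.97 on its arms, where 1 of the 43 genes lies. All 3 serine genes fell, as did 4 of 7 lysine genes, 2 of 6 histidine genes and 2 of 5 threonine and homoserine genes. In leucine and tryptophan synthesis no gene was called by limma, and at an unadjusted p under 0.05 there were 2 higher leucine genes and no tryptophan gene.

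BAT2 (YJR148W, chrX:705744-706874, plus strand) had the largest fall of all 43 genes in any comparison with the wild type. It had 2167, 2146 and 1995 normalized counts in the Rvb2-tagged wild type and 322, 435 and 415 in the TAH1 deletion. The groups lay far apart, with a change of -2.44 ± 0.12 (adjusted p = 3.14e-11), which is 5.41-fold lower. BAT1 had 3636, 3444 and 3341 against 3382, 3106 and 3251, which overlapped (-0.10 ± 0.09, adjusted p = 0.368). LYS9, a saccharopine dehydrogenase near the end of lysine synthesis, had 1153, 1026 and 1058 against 584, 568 and 555, and fell by 0.92 on the log2 scale (SE 0.07, adjusted p = 1.89e-08).

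HIS4 had 2024, 2167 and 2296 against 1066, 1564 and 1490, all lower in the deletion, with a change of -0.67 ± 0.21 (adjusted p = 0.0144). Replicate 1 of the deletion was the lowest, and without it the call was lost (adjusted p = 0.0858). LYS20 had 981, 811 and 789 against 604, 536 and 610, a change of -0.56 ± 0.19 (adjusted p = 0.0274). That call was lost without replicate 1 of the wild type (adjusted p = 0.107) and without replicates 1 or 2 of the deletion (adjusted p = 0.0518 and 0.0882). SER33 (-0.52 ± 0.12, adjusted p = 0.00203) and SER1, the phosphoserine aminotransferase (-0.51 ± 0.07, adjusted p = 9.91e-06), fell in each alternative that was run. Without replicate 1 of the deletion the number of genes that fell was 8. This count is given without the share of all genes in that fit, so it does not show a move particular to these genes. The fall of SER3 (-0.21 ± 0.08, adjusted p = 0.0323), whose groups overlapped, was lost without replicates 1 or 3 of either group (adjusted p = 0.0826 to 0.128). GCN4 had 8353, 6316 and 6279 against 6967, 6963 and 6905, with a change of 0.01 ± 0.09 (adjusted p = 0.964), and its wild type libraries were spread on both sides of the deletion.

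The rises were those of ARO7 and ILV3. ARO7 (YPR060C, minus strand), the chorismate mutase that leads to phenylalanine and tyrosine, had 414, 366 and 393 in the wild type and 1027, 906 and 973 in the deletion, a rise of 1.31 ± 0.09 or 2.47-fold (adjusted p = 2.98e-09) with the groups far apart. ARO7 is the only one of the 43 genes on chromosome XVI (674861 to 675631). In this deletion the median change of the genes tested on that chromosome was 0.94 on the left arm (261 genes) and 0.97 on the right arm (183 genes), while the other 30 arms had medians from -0.18 to 0.09. In the other deletions the arms of chromosome XVI had medians from -0.0036 to 0.06. What part the chromosome has in the rise of ARO7 was not tested. ILV3, on chromosome X, had 3642, 3505 and 3675 against 5875, 5533 and 5463, and rose by 0.64 ± 0.11 (adjusted p = 0.000179).

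The TAH1 effect differed between the tagged backgrounds in 31 of the 43 genes by the interaction term in limma. It was lower with Rvb2 tagged in 30 (69.8%), against 11.5% of all genes, and higher in 1, ARO7, against 13% of all genes (24.5% in either direction). The median difference of the 43 was -0.46. The shares of all genes here include chromosome XVI, where ARO7 lies and whose medians in the Rvb2-tagged TAH1 deletion are given above. Without replicate 2 of the Rvb1-tagged wild type it was lower in 37 genes, which included the 30, with a median of -0.65 and 30.1% of all genes called in either direction.

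**Figure D3:**
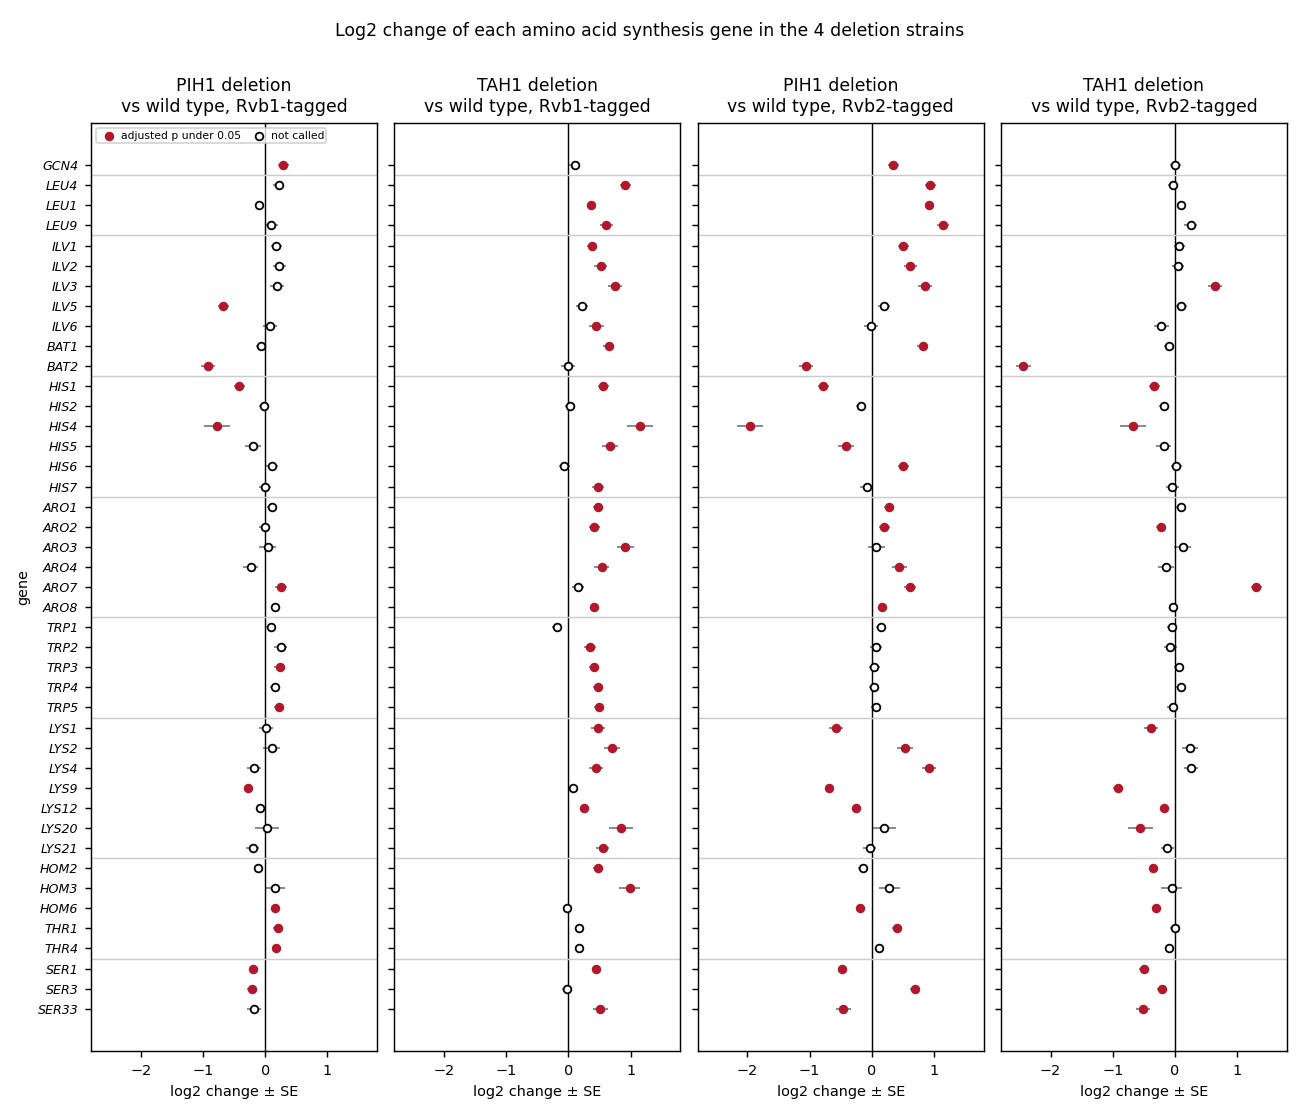
Log2 change of each gene in the 4 deletion strains against the wild type with the same tag (points, estimate; bars, SE; filled, adjusted p under 0.05). In the Rvb1-tagged TAH1 deletion the filled points lie to the right, and BAT2 at -2.44 in the Rvb2-tagged TAH1 deletion is the point farthest to the left.

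With Rvb2 tagged, loss of PIH1 changed these genes in both directions. Of the 43, 18 rose (41.9%), against 35.2% of all genes tested, and 10 fell (23.3%), against 34.4% (69.6% in either direction). The shares are those of a strain in which most genes were called, so the number of calls says little about this set. The median change was 0.15, against 0.01 for all genes. All 3 leucine genes, 4 of 7 isoleucine and valine genes and 5 of 6 of the aromatic trunk rose, while 3 of 6 histidine genes and 2 of 3 serine genes fell. Lysine genes were split with 2 higher and 3 lower, and the isoleucine and valine, histidine and serine genes also held calls in both directions. None of the 5 tryptophan genes passed the test in limma, nor at an unadjusted p under 0.05.

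LEU9 (YOR108W, chrXV:523027-524841, plus strand), the second isopropylmalate synthase, had 815, 938 and 983 normalized counts in the wild type and 1983, 2048 and 2007 in the PIH1 deletion, a rise of 1.15 ± 0.10 or 2.21-fold (adjusted p = 5.03e-08). LEU4 had 1977, 2006 and 2168 against 3908, 4016 and 3888, a rise of 0.94 ± 0.09 (adjusted p = 6.65e-08). LEU1 (YGL009C, chrVII:476313-478652, minus strand), the isomerase of the next step, had 3193, 3159 and 3224 against 6038, 6074 and 6056, a rise of 0.92 ± 0.04 (adjusted p = 4.56e-11). In these 3 genes every deletion library lay above every wild type library, and the replicates of LEU1 were the tightest. LEU2, which encodes the step that follows, is absent from the strain.

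Of the branched-chain genes, ILV3 rose by 0.86 ± 0.11 (adjusted p = 2.96e-06) and BAT1 by 0.82 ± 0.09 (adjusted p = 2.55e-07). ILV2, the catalytic subunit of acetolactate synthase, rose by 0.62 ± 0.10 (adjusted p = 3.48e-05), while ILV6, its regulatory subunit, changed by -0.02 ± 0.12 (adjusted p = 0.9). BAT2 went the other way: it had 2167, 2146 and 1995 against 1011, 975 and 1049, a change of -1.05 ± 0.12 (adjusted p = 4.12e-07). Both aminotransferases were clear of overlap between the groups, in opposite directions.

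HIS4 fell the most here. It had 2024, 2167 and 2296 in the wild type and 537, 596 and 537 in the PIH1 deletion, which is -1.96 ± 0.21 or 3.88-fold lower (adjusted p = 3.05e-07). HIS1 had 2529, 2562 and 2508 against 1500, 1494 and 1442, a change of -0.78 ± 0.09 (adjusted p = 6.6e-07). HIS5, the histidinol phosphate aminotransferase, fell by 0.42 on the log2 scale (SE 0.13, adjusted p = 0.00687). HIS6, an isomerase in the middle of the same pathway, rose instead, with 273, 247 and 223 against 369, 331 and 357 (0.51 ± 0.09, adjusted p = 8.35e-05). None of these groups overlapped.

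Among the lysine genes, LYS4, the homoaconitase, had 655, 670 and 729 against 1321, 1354 and 1233, a rise of 0.93 ± 0.11 (adjusted p = 1.29e-06), and LYS2 rose by 0.54 ± 0.13 (adjusted p = 0.00159). LYS9 and LYS1, which carry the last steps, changed by -0.68 ± 0.07 (adjusted p = 4.27e-07) and -0.57 ± 0.11 (adjusted p = 0.000251). LYS12, the homoisocitrate dehydrogenase, fell by 0.26 on the log2 scale (adjusted p = 0.00126). In serine synthesis SER3 had 466, 430 and 465 against 720, 749 and 725, a rise of 0.69 ± 0.08 (adjusted p = 5.07e-07), while its duplicate SER33 (-0.46 ± 0.12, adjusted p = 0.0025) and SER1 (-0.48 ± 0.07, adjusted p = 7.63e-06) fell. GCN4 rose by 0.35 ± 0.09 (adjusted p = 0.00181), from 8353, 6316 and 6279 to 8694, 8685 and 9042, with replicate 1 of the wild type close to the deletion libraries.

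**Figure D4:**
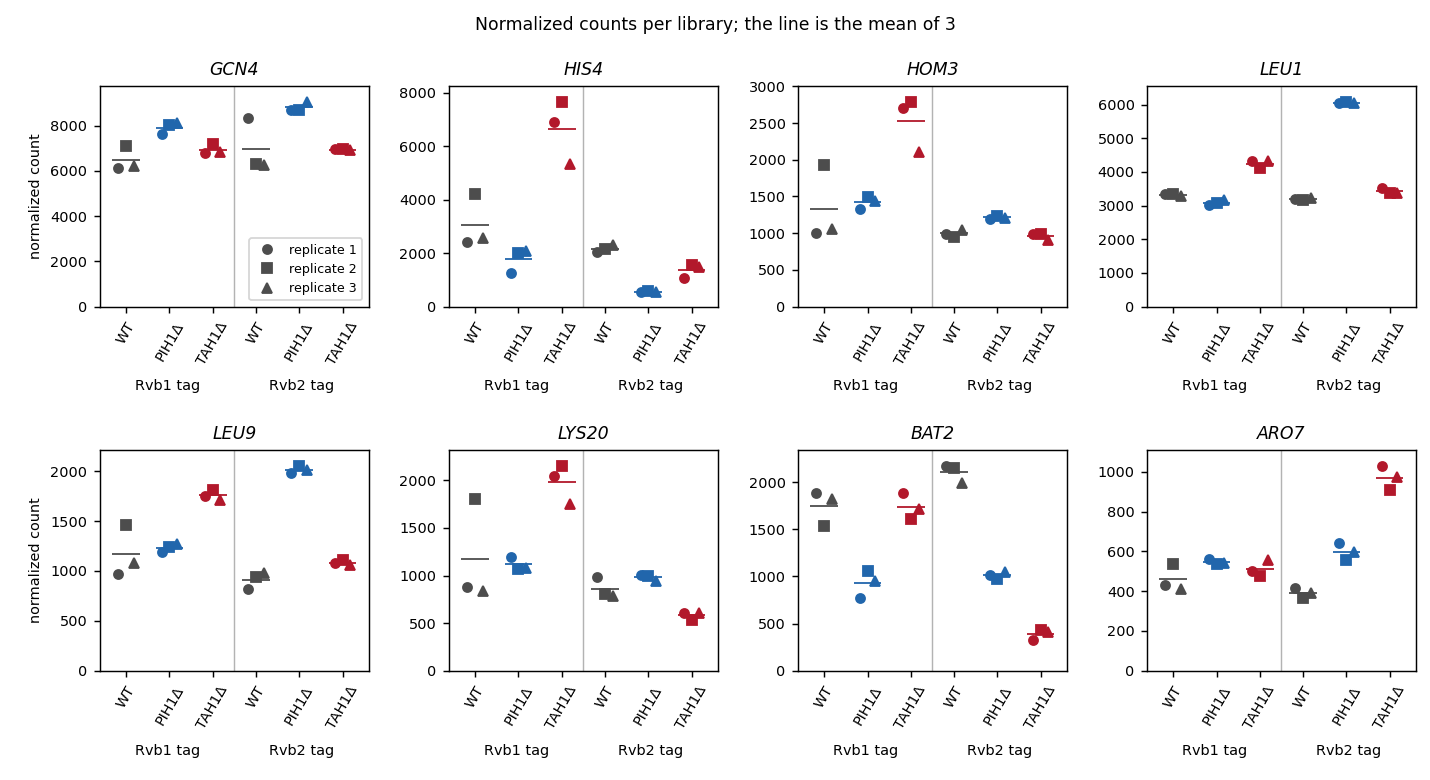
Normalized counts of 8 genes in each library (points, with replicates 1, 2 and 3 as circle, square and triangle; lines, mean of 3). LEU1 at 6038 to 6074 and LEU9 stand highest in the Rvb2-tagged PIH1 deletion, where HIS4 is lowest, BAT2 is lowest in the Rvb2-tagged TAH1 deletion at 322 to 435, and HIS4 and HOM3 are highest in the Rvb1-tagged TAH1 deletion.

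The activator Leu3 recognises the word CCG, then 4 bases of any kind, then CGG, which reads the same on both strands. It was in the 500 bases before the start codon of 8 of the 43 genes (18.6%), against 3.28% of 6000 genes: LEU1, LEU9, ILV2, ILV5, BAT1, BAT2, ARO7 and HOM2. In the Rvb2-tagged PIH1 deletion 5 of these 8 rose and 1 fell (median change 0.62), and of the 35 without it 13 rose and 9 fell (median 0.07). In the Rvb1-tagged TAH1 deletion 5 of the 8 rose (median 0.41), and 26 of the 35 (median 0.45). In the Rvb2-tagged TAH1 deletion 1 rose and 2 fell of the 8 (median 0.07), and 1 and 11 of the 35 (median -0.08). In the Rvb1-tagged PIH1 deletion these counts were 1 and 2 (median -0.09), and 6 and 5 (median 0.08). The stretches below show the word, in capitals, in the branched-chain genes called in the Rvb2-tagged PIH1 deletion. They run 5′ to 3′ on the strand of the gene, from the same reference. LEU1 is on the minus strand and the others on the plus strand.
LEU1 at chrVII:478800-478899, 247 to 148 bases before the start codon: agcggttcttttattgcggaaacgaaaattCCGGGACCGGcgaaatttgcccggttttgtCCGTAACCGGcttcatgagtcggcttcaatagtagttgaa
LEU9 at chrXV:522720-522789, 307 to 238 bases before: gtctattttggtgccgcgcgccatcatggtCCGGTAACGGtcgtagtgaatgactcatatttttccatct
BAT1 at chrVIII:517355-517424, 177 to 108 bases before: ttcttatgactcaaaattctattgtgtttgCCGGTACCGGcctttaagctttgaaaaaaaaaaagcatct
ILV2 at chrXIII:483586-483655, 498 to 429 bases before: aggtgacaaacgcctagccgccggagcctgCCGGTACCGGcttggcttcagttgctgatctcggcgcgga
BAT2 at chrX:705380-705449, 364 to 295 bases before: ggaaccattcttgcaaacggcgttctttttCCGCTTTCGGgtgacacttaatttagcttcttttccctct
LEU1 carried the word at 2 places. Of the 8 genes with the word, 5 rose and 1, BAT2, fell in the Rvb2-tagged PIH1 deletion, so its presence did not go with a single direction. LEU3 itself, named after its values were seen, rose by 1.05 ± 0.09 in this strain (adjusted p = 1.54e-08), from 332, 379 and 336 to 762, 721 and 691 normalized counts.

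With Rvb1 tagged, loss of PIH1 gave 7 genes that rose (16.3%), against 19.2% of all genes tested, and 7 that fell (16.3%), against 18.7% (38% in either direction). With all libraries, both shares are near those of all genes, and the median change was 0.04 against 0.01. The falls were larger than the rises. BAT2 had 1882, 1539 and 1823 in the wild type and 775, 1058 and 947 in the deletion, a change of -0.92 ± 0.12 (adjusted p = 1.54e-05). ILV5 had 10050, 13600 and 10173 against 6947, 6948 and 7138, a change of -0.67 ± 0.09 (adjusted p = 4.29e-05). In both genes the groups were clear of each other, and both calls stayed in each alternative that was run. The changes were -1.01 for BAT2 and -0.53 for ILV5 without replicate 2 of the wild type.

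HIS4 had 2402, 4197 and 2576 against 1257, 2015 and 2067, a change of -0.77 ± 0.21 (adjusted p = 0.00828). The call was lost without replicate 1 of the deletion, its lowest library (adjusted p = 0.0569), and in a fit of only these groups (adjusted p = 0.0761). HIS1 had 2677, 3542 and 2683 against 2044, 2196 and 2365, a change of -0.42 ± 0.09 (adjusted p = 0.00157), with no overlap. LYS9 (-0.27 ± 0.07, adjusted p = 0.00935), SER3 (-0.22 ± 0.08, adjusted p = 0.0342) and SER1 (-0.20 ± 0.07, adjusted p = 0.0311) had smaller falls. Those of SER3 and SER1 were lost without replicate 2 of the wild type (adjusted p = 0.0941 and 0.135), and HIS4, HIS1 and LYS9 then changed by -0.52 (adjusted p = 0.0222), -0.29 (adjusted p = 0.0012) and -0.17 (adjusted p = 0.03).

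GCN4 rose by 0.29 ± 0.09 (adjusted p = 0.0149), from 6122, 7093 and 6228 to 7622, 8013 and 8109. All deletion libraries were higher, and the call was lost without replicate 1 (adjusted p = 0.0656) or 3 (adjusted p = 0.0572) of the wild type. The other rises were those of ARO7, TRP3, TRP5, THR1, THR4 and HOM6, from 0.16 for HOM6 to 0.26 for ARO7. Each of these 6 calls was lost without replicate 1 of the wild type, and likewise without replicate 3. The number of rises turned on the wild type libraries. Without replicate 1 or replicate 3 of the wild type no gene was called higher in limma, with 3 and 2 at an unadjusted p under 0.05. Without deletion replicates 1, 2 or 3 the number was 2, 3 or 1, and without replicate 1 of the deletion 4 genes fell. The counts of these fits are given without their shares of all genes, so they do not show a move particular to the 43. Without replicate 2 of the wild type, 46.5% of all genes were called in either direction, and the median of the 43 was 0.17. Of the 43, 5 then fell (11.6%), against 22.9% of all genes. The genes that rose numbered 22 (51.2%), against 23.6% of all genes, and included the 7. GCN4 was among them, with a change of 0.36 (adjusted p = 0.00207). LEU4 then changed by 0.33 (adjusted p = 0.00091) in place of 0.22 ± 0.09 (adjusted p = 0.059), and ILV3 by 0.40 (adjusted p = 1.01e-05) in place of 0.19 ± 0.11 (adjusted p = 0.194).

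The PIH1 effect differed between backgrounds in 19 of the 43 genes: 13 were higher with Rvb2 tagged (30.2%, against 25.7% of all genes) and 6 were lower (14%, against 24.7%), with 50.3% of all genes called in either direction. All 3 leucine genes and 5 of 7 isoleucine and valine genes were among the 13, the latter being ILV1, ILV2, ILV3, ILV5 and BAT1. For BAT2, which fell in both PIH1 deletions, the difference was -0.13 ± 0.16 (adjusted p = 0.519). For GCN4 it was 0.06 ± 0.12 (adjusted p = 0.725). Without replicate 2 of the Rvb1-tagged wild type, 12 genes were higher and 12 lower. Of all genes, 24.2% were then higher and 47.7% were called in either direction.

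The deletions were also compared with each other within a tag. The difference is between deletion libraries, while its error is pooled over all 18. With Rvb1 tagged, 31 of the 43 genes were lower in the PIH1 than in the TAH1 deletion (72.1%), against 14.5% of all genes, and 2 were higher (4.65%), against 12% (26.5% in either direction). HIS4 differed by -1.92 ± 0.21 (adjusted p = 3.35e-06), HIS1 by -0.98 ± 0.09 (adjusted p = 3.13e-07), BAT2 by -0.91 ± 0.12 (adjusted p = 1.63e-05) and ILV5 by -0.88 ± 0.09 (adjusted p = 2.58e-06). All 7 lysine genes and all 3 leucine genes were lower. The genes that were higher were TRP1 (0.28 ± 0.08, adjusted p = 0.0198) and HOM6 (0.18 ± 0.05, adjusted p = 0.0221), and both calls were lost when single deletion libraries were left out (largest adjusted p = 0.0873 and 0.0858). Over all such omissions the number of lower genes was 28 to 31, given without the share of all genes in each fit. In a fit of only these deletion libraries, which no wild type library enters, 33 of the 43 were lower and 3 higher, and 32.8% of all genes were called. GCN4 was then called higher (0.19, adjusted p = 0.0147).

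With Rvb2 tagged the order was turned: 20 genes were higher in the PIH1 than in the TAH1 deletion (46.5%), against 28.7% of all genes, and 3 were lower (6.98%), against 33.6% (62.3% in either direction). The lower ones were HIS4 (-1.28 ± 0.21, adjusted p = 5.15e-05), ARO7 (-0.69 ± 0.09, adjusted p = 6.08e-06) and HIS1 (-0.44 ± 0.09, adjusted p = 0.00038). ARO7 lies on chromosome XVI, and no other gene of this set does. The shares of all genes in this comparison include that chromosome, whose medians in the Rvb2-tagged TAH1 deletion are given above. What part the chromosome has in these shares was not tested. BAT2 was higher by 1.38 ± 0.12 (adjusted p = 2.37e-08), LEU4 by 0.97 ± 0.09 (adjusted p = 5.59e-08), BAT1 by 0.91 ± 0.09 (adjusted p = 9.84e-08) and SER3 by 0.90 ± 0.08 (adjusted p = 3.11e-08). GCN4 was higher by 0.34 ± 0.09 (adjusted p = 0.00255). In a fit of only these deletion libraries 27 genes were higher and 5 lower, with 67.8% of all genes called.

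Between the wild types, with Rvb2 against Rvb1 tagged, none of the 43 genes was called in limma, where 0.206% of all genes were. At an unadjusted p under 0.05 there were 2 higher and 11 lower genes, and the median was -0.13 against 0.00 for all genes. Without replicate 2 of the Rvb1-tagged wild type that median was -0.01, with 1 higher and 3 lower genes at an unadjusted p under 0.05. Without replicate 1 or replicate 3 of that wild type, 4 or 2 genes were called lower, counts given without the share of all genes in those fits. The estimate for GCN4 was 0.10 ± 0.09 (adjusted p = 0.51).

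**Figure D5:**
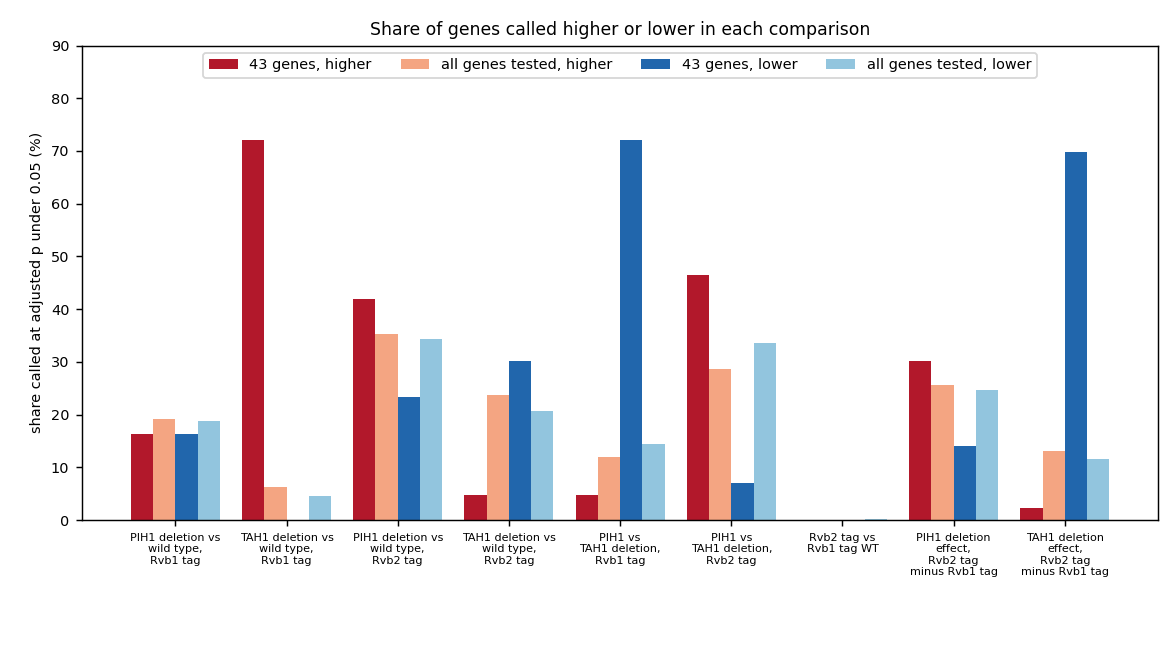
Share of the 43 genes and of all 5825 genes tested that were called higher or lower in each of the 9 comparisons (limma, adjusted p under 0.05). The 43 genes exceed all genes most in the Rvb1-tagged TAH1 deletion, with 72.1% higher against 6.28%, while in the Rvb1-tagged PIH1 deletion the shares are close.

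The genes that act on Gcn4 were followed in a list of 15. It mixes genes whose products raise Gcn4 output, such as GCN2, with others that lower it, such as YIH1 and PCL5. A count of rises in this list therefore gives no direction for Gcn4. Of the 15, 9 rose (60%) and none fell in the Rvb1-tagged PIH1 deletion, against 19.2% and 18.7% of all genes. At an unadjusted p under 0.05, 11 of the 15 were higher and none was lower. In the Rvb2-tagged PIH1 deletion 13 rose (86.7%) and 1 fell (6.67%), against 35.2% and 34.4% of all genes. In the TAH1 deletions 3 rose and 1 fell with Rvb1 tagged, against 6.28% and 4.48% of all genes, and 7 rose and 1 fell with Rvb2 tagged, against 23.8% and 20.6%. Those 7 include SUI3 and PHO85 on chromosome XVI, whose arm medians in that strain are given above and which also enters these shares. With replicate 2 of the Rvb1-tagged wild type left out, the Rvb1-tagged PIH1 deletion had 11 up and none down, against 23.6% and 22.9% of all genes. The Rvb1-tagged TAH1 deletion then had 10 up and 2 down, against 17.5% and 13.9% of all genes. GCN1, which passes the signal of uncharged tRNA to Gcn2, rose in both PIH1 deletions, by 0.42 ± 0.10 with Rvb1 tagged (adjusted p = 0.00497) and by 0.68 ± 0.10 with Rvb2 tagged (adjusted p = 1.71e-05). GCN1 also rose in the Rvb2-tagged TAH1 deletion, by 0.42 ± 0.10 (adjusted p = 0.00348). In the Rvb1-tagged TAH1 deletion its change was -0.003 ± 0.10 (adjusted p = 0.99). GCN2 changed by 0.17 to 0.23 in the 3 deletions where it was called, and by -0.02 ± 0.06 in the Rvb1-tagged TAH1 deletion (adjusted p = 0.849). Its call in the Rvb2-tagged TAH1 deletion was lost when any library of the groups compared was left out (adjusted p = 0.0554 to 0.0919), and that in the Rvb1-tagged PIH1 deletion without replicate 3 of the wild type (adjusted p = 0.117) or replicates 1 or 2 of the deletion (adjusted p = 0.0644 and 0.082).

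YIH1, an inhibitor that competes with Gcn2 for Gcn1, fell in both TAH1 deletions, by 0.41 on the log2 scale with Rvb1 tagged (SE 0.11, adjusted p = 0.0201) and by 0.48 with Rvb2 tagged (SE 0.11, adjusted p = 0.00132). It lies next to TAH1 on chromosome III, with 168 bp between the genes. The first of these values was -0.32 without replicate 2 of the wild type (adjusted p = 0.0248), and its call was lost without replicate 1 (adjusted p = 0.0787) or 3 (adjusted p = 0.0529) of the deletion. In the Rvb2-tagged PIH1 deletion YIH1 rose by 0.73 ± 0.11 (adjusted p = 9.51e-06).

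PCL5, the cyclin that directs the kinase Pho85 to Gcn4 and so to its degradation, had 441, 764 and 415 normalized counts in the Rvb1-tagged wild type and 1261, 1118 and 930 in the TAH1 deletion. It rose by 1.07 ± 0.22 (adjusted p = 0.00431), with the groups apart, which was the largest change of the 15 in that strain. In the Rvb1-tagged PIH1 deletion it had 606, 913 and 882, which overlaps the wild type, and its rise of 0.60 ± 0.22 (adjusted p = 0.0395) was lost without wild type replicates 1 or 3 (adjusted p = 0.147 and 0.173) or deletion replicates 2 or 3 (adjusted p = 0.139 and 0.123). In the Rvb2-tagged PIH1 deletion GCD6 had the largest change of the 15, a rise of 0.73 ± 0.08 (adjusted p = 5.87e-07), close to that of YIH1. In the Rvb2-tagged TAH1 deletion the largest change of the 15 was that of SUI3, a subunit of eIF2, with 1.12 ± 0.07 (adjusted p = 5.24e-10). SUI3 and PHO85, which rose by 0.75 ± 0.09 (adjusted p = 2.08e-06), and was named after its values were seen, are on chromosome XVI. PCL5 rose by 1.35 (adjusted p = 1.11e-05) in the Rvb1-tagged TAH1 deletion and by 0.88 (adjusted p = 0.000647) in the PIH1 deletion with that tag when replicate 2 of their wild type was left out.

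Of 6 pathway activators and their partners, 5 rose and 1 fell in the Rvb2-tagged PIH1 deletion, where 35.2% of all genes rose and 34.4% fell. The largest rise was that of BAS1, an activator of histidine and purine genes. It had 279, 287 and 312 in the Rvb2-tagged wild type and 1002, 903 and 974 in the PIH1 deletion (1.71 ± 0.14, adjusted p = 2.4e-08), with the groups far apart. Beside this, HIS1 and HIS4 were lower in the same libraries, as given above. PHO2, the partner of Bas1, fell by 0.34 on the log2 scale (SE 0.08, adjusted p = 0.00173). LYS14 rose by 0.82 ± 0.08 (adjusted p = 8.72e-08), in libraries where 2 lysine genes rose and 3 fell. In the other deletions BAS1 rose by 0.63 ± 0.14 (PIH1 deletion, Rvb1 tagged, adjusted p = 0.00265), 0.51 ± 0.14 (TAH1 deletion, Rvb1 tagged, adjusted p = 0.0312) and 0.82 ± 0.14 (TAH1 deletion, Rvb2 tagged, adjusted p = 0.000181). The second of these was lost when any library of the groups compared, other than replicate 2 of the wild type, was left out, with adjusted p from 0.0638 to 0.182. Without that replicate BAS1 rose by 0.89 in the PIH1 and by 0.77 in the TAH1 deletion with Rvb1 tagged (adjusted p = 3.43e-08 and 3.09e-07). PHO2 and LYS14 were named after their values were seen.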

How the data were processed

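Poly(A)+ RNA of 18 libraries was analysed from tables made by the authors. Per the submitters' processing notes, reads were processed with TopHat2 2.0.3 and DESeq2 1.6.3 on sacCer3. The annotation, the counting tool and its strand setting are not stated in the labels, so reads of overlapping genes could not be assigned by strand here. The main table, deposited by the authors, holds normalized counts rounded to whole numbers (a signal per gene, not raw counts), so library depths are known only after scaling. A second deposited table holds FPKM rounded to whole numbers by the authors and was treated as a score, used for levels between genes. Rounding limits the precision of low values.

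From these, log2(normalized count + 1) was fitted with limma 3.58.1 in R 4.3.3 with a mean-variance trend, 6 group means and 9 contrasts, for the 5825 genes that averaged 10 or more normalized counts. The Benjamini-Hochberg threshold was 0.05, and a fold change on this scale understates the change of low genes. The fit was tested on simulated data. Of the 7126 identifiers, 6048 matched a locus tag of the reference, whose sequence was read with biopython 1.88. The 43 genes, the other gene lists and the tests were chosen with earlier results of these data known. The text names GCN4, the 6 largest rises and 6 largest falls among the 43 in each deletion and between the wild types (4 and 4 in other contrasts), 10 genes of duplicated pairs, GCN1, GCN2, YIH1 and the largest change of each other list. Not every one of these genes is given a value in every comparison. HIS5, HIS6, ILV2, ILV6, LYS2 and LYS12 in the Rvb2-tagged PIH1 deletion, HOM6, SER1 and ILV3 in the Rvb1-tagged one, and genes marked so in the text were named after their values were seen. The alternatives were pseudocounts of 0.5 and 5, no filter or a mean of 50, TMM scaling, quantile normalization, library weights, the FPKM table, a replicate block, fits of only the groups compared, and leaving out each library. P-values rest on the spread between biological replicates, pooled per gene over all 6 groups of 3 and not taken from the groups compared alone.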

Additional observations from a re-analysis of the deposited data

Results flagged for a closer look

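For 13 named values the effect of a deletion differed between the Rvb1-tagged and the Rvb2-tagged background by the interaction term in limma. Each value is the log2 change with Rvb2 tagged minus that with Rvb1 tagged.

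For loss of PIH1, the change was higher with Rvb2 tagged in LYS4 (1.10 ± 0.16, adjusted p = 3.86e-05), LEU9 (1.05 ± 0.15, adjusted p = 2.86e-05), LEU1 (1.03 ± 0.06, adjusted p = 6.04e-09) and SER3 (0.91 ± 0.11, adjusted p = 7.57e-06). LEU1 is an example, with a change of 0.92 in one background and -0.10 in the other. It was lower with Rvb2 tagged in HIS4 (-1.19 ± 0.29, adjusted p = 0.00324), LYS1 (-0.59 ± 0.16, adjusted p = 0.00629), LYS9 (-0.41 ± 0.11, adjusted p = 0.00412) and HIS1 (-0.36 ± 0.13, adjusted p = 0.0256). HIS4, HIS1 and LYS9 fell in both backgrounds, and further with Rvb2 tagged. The difference for HIS1 was lost without replicates 1 or 3 of the Rvb1-tagged wild type (adjusted p = 0.0673 and 0.068), replicate 3 of the Rvb1-tagged PIH1 deletion (adjusted p = 0.0711) or replicate 3 of the Rvb2-tagged PIH1 deletion (adjusted p = 0.0536).

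For loss of TAH1, ARO7 was the gene with a higher change with Rvb2 tagged (1.15 ± 0.13, adjusted p = 2.44e-06), and it lies on chromosome XVI, whose genes had median changes of 0.94 and 0.97 on the left and right arms in that deletion. The change was lower with Rvb2 tagged in BAT2 (-2.43 ± 0.16, adjusted p = 8.12e-09), HIS4 (-1.82 ± 0.29, adjusted p = 0.000137), LYS20 (-1.40 ± 0.27, adjusted p = 0.000868) and HOM3 (-1.04 ± 0.24, adjusted p = 0.00315). HIS4 rose in one background and fell in the other. The Rvb1-tagged wild type library that stands apart enters each of these values. Without it the TAH1 difference was called lower in 37 of the 43 genes and higher in 1, and the PIH1 difference higher in 12 and lower in 12.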

How the results depend on the processing

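Of 168 named values 122 were called, and 0 of these reversed under any alternative that was run. The alternatives moved some counts of the 43 genes by over 1.5 times. In the Rvb1-tagged PIH1 deletion, fits of only the groups compared gave 1 gene higher and 3 lower, and library weights, or only the groups without the library that stands apart (added after the data were seen), gave 22 higher. In the Rvb1-tagged TAH1 deletion only the groups compared gave 2 higher, and quantile normalization 1 lower. In the Rvb2-tagged TAH1 deletion quantile normalization and only the groups compared gave 5 higher, and library weights 11. Between the deletions, quantile normalization gave 4 higher with Rvb1 tagged, and only the groups compared 5 lower with Rvb2 tagged. Library weights gave 2 higher and 6 lower between the wild types and 14 lower for the difference in PIH1 effect, where the added setting gave 13. The fit of library weights stopped before it converged. The share of all genes called also moved with the setting and is not given beside each count in this section. These counts alone therefore do not show a move particular to the 43 genes. The cause of these moves was not tested.

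Values that were not called changed sign in places. With library weights the estimates were 0.0669 for BAT1 and 0.0191 for YIH1 (PIH1 deletion, Rvb1 tagged), 0.0437 for SER3, 0.0611 for GCN1, 0.0346 for GCN2 and 0.031 for PIH1 (TAH1 deletion, Rvb1 tagged), 0.0153 for ILV6 (PIH1 deletion, Rvb2 tagged) and 0.0179 for LEU4 (wild types). In the added setting they were 0.0687 for BAT1, 0.03 for SER3, 0.0875 for GCN1, 0.02 for GCN2 and 0.0127 for PIH1 in the same strains, 0.0554 for LEU4 and 0.0086 for BAT1 (wild types) and -0.0098 for GCN4 (difference in PIH1 effect). With quantile normalization they were -0.0591 for ARO3 and -0.0639 for LYS20 (PIH1 deletion, Rvb1 tagged), 0.021 for PIH1 and -0.0234 for RVB2 (TAH1 deletion, Rvb1 tagged), -0.0202 for ARO3 (PIH1 deletion, Rvb2 tagged) and 0.13 for GCN4 (difference in TAH1 effect). TMM scaling gave -0.0049 for GCN4 (TAH1 deletion, Rvb2 tagged) and FPKM values gave 0.0046 for GCN1 (TAH1 deletion, Rvb1 tagged).

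With single libraries left out, the number of higher genes was 0 to 22 (PIH1 deletion) and 24 to 36 (TAH1 deletion) with Rvb1 tagged, and of lower genes 4 to 7 and 0. The counts of 22 and 36 are without replicate 2 of the wild type, where 23.6% and 17.5% of all genes were higher. With Rvb2 tagged the TAH1 deletion had 8 to 13 lower. Higher genes between the Rvb1-tagged deletions numbered 0 to 2, lower genes between the wild types 0 to 4, and lower genes in the difference of PIH1 effects 4 to 12. Member medians ran from -0.02 to 0.17 (PIH1 deletion, Rvb1 tagged), 0.39 to 0.56 (TAH1 deletion, Rvb1 tagged), -0.20 to -0.0088 (wild types) and -0.65 to -0.39 (difference in TAH1 effect). Uncalled values that turned ran, in the Rvb1-tagged PIH1 deletion, from -0.0225 to 0.27 for LEU9, -0.14 to 0.0687 for BAT1, -0.0723 to 0.27 for ARO3 and -0.17 to 0.38 for LYS20. In the Rvb1-tagged TAH1 deletion they ran from -0.0953 to 0.0498 for BAT2, -0.0883 to 0.0272 for SER3, -0.0852 to 0.0875 for GCN1, -0.0691 to 0.0204 for GCN2 and -0.0619 to 0.0314 for PIH1. With Rvb2 tagged they ran from -0.0656 to 0.0046 for LYS21 and -0.11 to 0.14 for ILV6 (PIH1 deletion), and from -0.0647 to 0.14 for GCN4 and -0.0584 to 0.0081 for LEU4 (TAH1 deletion). Between the wild types the ranges were -0.0383 to 0.17 for GCN4, -0.12 to 0.0554 for LEU4 and -0.20 to 0.0086 for BAT1. For GCN4 the difference between backgrounds ran from -0.0132 to 0.19 (PIH1) and from -0.17 to 0.0384 (TAH1).

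The replicate numbers were not seen to pair the samples across all groups. Of 45 correlations of deviations between same-numbered libraries, 8 were above 0.1, over a range of -0.38 to 0.41. The Rvb1-tagged PIH1 and Rvb2-tagged TAH1 deletions had 0.41, 0.14 and 0.16 in replicates 1, 2 and 3. The Rvb1-tagged PIH1 and TAH1 deletions had -0.38, -0.18 and -0.17. With a replicate block the counts higher and lower were 5 and 7, 31 and 0, 18 and 11, and 3 and 14 in the PIH1 and TAH1 deletions with Rvb1 and then Rvb2 tagged. Rounding of the deposited values to whole numbers sets the limit for low genes.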

Other observations

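Genes of the same pathways outside the 43 were followed in a list of 6. ARO9, an aromatic aminotransferase of amino acid breakdown, had 255, 176 and 281 normalized counts in the Rvb1-tagged wild type and 552, 514 and 431 in the TAH1 deletion, a rise of 1.09 ± 0.15 (adjusted p = 0.000183). With Rvb2 tagged it went the other way, from 344, 326 and 329 to 102, 133 and 108 (-1.54 ± 0.15, adjusted p = 2.21e-07), beside the fall of BAT2 in the same libraries. OAC1, a mitochondrial carrier that also moves isopropylmalate, rose in the strains where all leucine genes of the 43 were called higher. Its rise was 0.61 ± 0.06 in the Rvb1-tagged TAH1 deletion (adjusted p = 3.39e-06) and 0.65 ± 0.06 in the Rvb2-tagged PIH1 deletion (adjusted p = 5.39e-08). Without replicate 2 of the Rvb1-tagged wild type, LEU4 and LEU9 also rose in the PIH1 deletion with that tag (0.33 and 0.27, adjusted p = 0.00091 and 0.00287). There OAC1 changed by -0.10 (adjusted p = 0.2) and LEU1 by -0.10 (adjusted p = 0.0963). SER2, the last enzyme of serine synthesis, was named after its values were seen. It fell in the Rvb2-tagged PIH1 deletion (-0.50 ± 0.06, adjusted p = 9.8e-07), where SER1 and SER33 fell and SER3 rose.

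In a list of 13 genes of other amino acid families, 7 rose (53.8%) and 3 fell (23.1%) in the Rvb2-tagged PIH1 deletion, against 35.2% and 34.4% of all genes. GLT1, the glutamate synthase, had 929, 1059 and 1116 in the wild type and 2326, 2350 and 2355 in the deletion (1.18 ± 0.09, adjusted p = 1.14e-08). GLN1, the glutamine synthetase, was named after its values were seen and had 5518, 5352 and 5533 against 2498, 2462 and 2502 (-1.14 ± 0.18, adjusted p = 2.31e-05). In the Rvb1-tagged TAH1 deletion 3 of the 13 rose (23.1%) and none fell in limma, against 6.28% and 4.48% of all genes, with 9 higher and 1 lower at an unadjusted p under 0.05. ASN1, an asparagine synthetase, had 4351, 6842 and 4334 in that wild type and 9189, 9133 and 7001 in the deletion (0.73 ± 0.15, adjusted p = 0.00435). Replicate 2 of the wild type was high here too, close below the lowest deletion library, and without it 9 of the 13 rose, against 17.5% of all genes, with ASN1 at 0.95. In the Rvb2-tagged TAH1 deletion 2 rose (15.4%) and 5 fell (38.5%), against 23.8% and 20.6% of all genes, with GDH1, a glutamate dehydrogenase, the largest fall (-0.76 ± 0.11, adjusted p = 1.82e-05). In the Rvb1-tagged PIH1 deletion the largest called change was that of GDH3 (-0.52 ± 0.14, adjusted p = 0.0089), while GLT1 rose by 0.28 ± 0.09 (adjusted p = 0.0262). Without replicate 2 of that wild type GDH3 changed by -0.60 (adjusted p = 0.00304).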
